A study of Bos taurus with 14 samples.

Results

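Endometrium from cows 2, 3, 4 and 5 was compared between explants cultured with and without sPIF, a synthetic copy of preimplantation factor. These cows are the high progesterone group, defined by the study from progesterone in serum, and they were chosen by that group and by no measured transcript. They gave 8 of the 14 libraries of the series, 4 Control and 4 sPIF, while the remaining 6 libraries came from cows 1, 6 and 7 of the low progesterone group. Every animal was a heifer, and the tissue was intercaruncular endometrium taken after slaughter from the uterine horn on the side of an ovary that the labels stage as follicular. The study's methods set that stage by a corpus luteum in regression, yet the authors took serum progesterone as high as in these 4 cows for a sign of the luteal phase, so the stage of the cycle is uncertain here. Each cow supplied both explants of a pair. Control explants were kept for 30 h without the peptide, and sPIF explants for the same time at 100 nM, given for 24 h and again in fresh medium for 6 h; the study's methods add DMSO, the solvent of sPIF, to the Control wells as well. Breed and age in months are not given in the sources used here. Explants are pieces of whole tissue, so that epithelium, stroma, vessels and leukocytes were sequenced together, and fewer cells of a type cannot be told apart from less RNA per cell. Serum progesterone is not a transcript, and of 32 genes listed for progesterone and oestrogen response only LPL could be matched by name, so the label of the group was not checked against the counts.

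Embryos release preimplantation factor, a short peptide, before they attach to the uterus, and it is studied as a signal to the immune system of the mother. In the endometrium, NF-kappa B proteins drive transcription of cytokines, chemokines and adhesion molecules once their inhibitors are degraded, and many of these targets are themselves inhibitors of the pathway. Progesterone, released by the corpus luteum, prepares the tissue for the embryo and dampens local immune responses.

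Total counts of the Control libraries of cows 2, 3, 4 and 5 were 19185319, 25771250, 17535833 and 18588633, and those of the sPIF libraries were 16377453, 18499937, 25318707 and 28625724. The sPIF library was the deeper of the pair in cows 4 and 5 and the shallower in cows 2 and 3. The mean difference, 1935196 counts, was smaller than its SD between cows of 8308479 (p = 0.75 in an exact sign-flip test, two-sided, over 4 pairs, whose 16 sign flips give no p below 2 in 16). Cows 2, 3 and 4 were sequenced in lane 1 and cow 5 in lane 2, so that of these 4 cows only cow 5 was in lane 2, which it shares with cows 6 and 7 of the low progesterone group.

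The cows differed in how far the explants of a pair lay apart. Across the 13488 genes with at least 10 counts in all 8 libraries, the SD of the log2 difference between sPIF and Control was 0.40 in cow 2, 0.77 in cow 3, 0.36 in cow 4 and 0.52 in cow 5. Cow 3 therefore had the widest spread, with 2015 genes more than 2-fold apart against 407 in cow 2, 230 in cow 4 and 755 in cow 5. The 10 most abundant genes held 10.5% of the counts in the sPIF library of cow 3 and 5.7% in its Control library. In the other 6 libraries they held 6.2% to 8.2%, and a link to the spread was not tested. Both libraries of cow 3 were nearer to a library of another cow than to each other, whereas the other 6 libraries were nearest to the second explant of their own cow. Correlated across genes, which are not independent replicates, the differences of cows 2 and 3 had Pearson's r of 0.44, those of cows 2 and 4 of 0.16 and those of cows 3 and 4 of 0.22. Cow 5 went the other way, with r of -0.26 against cow 2, -0.25 against cow 3 and -0.06 against cow 4. Genes with an unadjusted p under 0.05 in cows 2, 3 and 4 alone, leaving out the study's own list of changed genes, numbered 1473, and 346 of them (23.5%) had the same direction in cow 5, against 39.7% of all genes. With each of the other cows left out in the same way, a comparison chosen after seeing the data, the share with the same direction in the cow left out was 65.2% for cow 2, 63.1% for cow 3 and 69.3% for cow 4, against 57.7%, 56.7% and 53.3% of all genes. Per the study, the libraries of lane 2 were sequenced again after a loading error, and the counts of both runs were added. Within the group, lane, this adding of runs and animal cannot be told apart for cow 5. Cows 6 and 7, also of lane 2, had r of 0.04 to 0.24 against cows 2, 3 and 4, and of 0.16 and 0.03 against cow 5. For cow 1, of lane 1, r was 0.10, 0.19 and -0.07 against cows 2, 3 and 4, and -0.09 against cow 5.

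**Figure D1:**
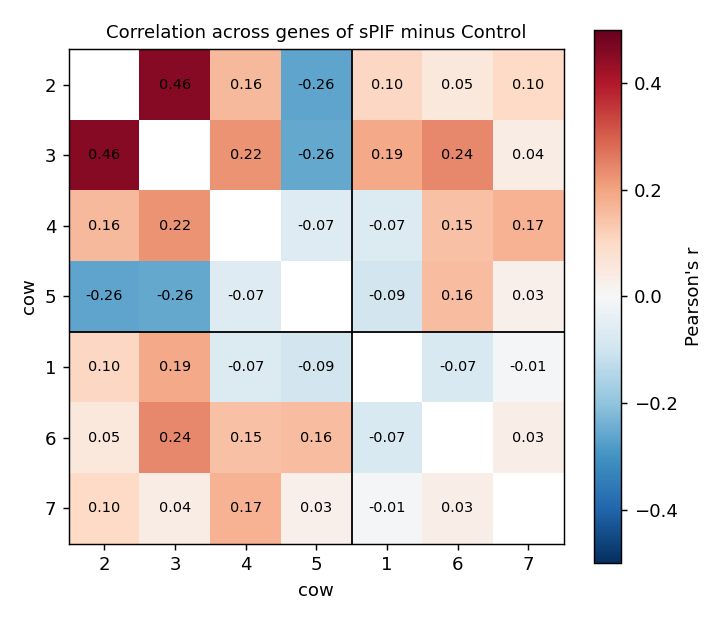
Pearson's r, across 13233 genes, between the log2 differences (sPIF minus Control) of each pair of cows; the black lines separate cows 2 to 5 from cows 1, 6 and 7, and the colour runs from -0.5 (blue) to 0.5 (red). Cows 2 and 3 had the highest r of the 21 pairs, 0.46, and cows 2 and 5 the lowest, -0.26.

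In the paired comparison, edgeR's quasi-likelihood test, adjusted by Benjamini-Hochberg over 13488 genes, called 0 of them (0%) at the threshold of 0.1, where the smallest adjusted p was 0.911. At an unadjusted p under 0.05 there were 580 genes (4.3%), of which 411 (3.05%) were lower with sPIF and 169 (1.25%) were higher. With no effect at all, a share of about 0.05 of the tested genes would fall under that threshold, and 4.3% does not exceed it. DESeq2 on the same counts called 42 genes (0.311%), 36 lower and 6 higher, and limma-voom called 0, with 624 genes at an unadjusted p under 0.05. Within lane 1, that is without cow 5, edgeR called 0 genes with 1546 at an unadjusted p under 0.05, and DESeq2 called 305, of which 108 were lower and 197 higher, so the balance of directions turned with that cow. Without cow 2, 3 or 4, DESeq2 called 22, 32 and 11 genes, which hold 15, 18 and 8 of the 42, and edgeR called 0 each time, with 405, 357 and 355 genes at an unadjusted p under 0.05. By sign, 1082 genes (8.02%) were lower with sPIF in 4 of 4 cows and 744 (5.52%) were higher in 4 of 4. The 4 Control and 4 sPIF values did not overlap for 85 genes (0.63%). Among the 27 genes named below that DESeq2 called, 4 stayed called whichever cow was left out, VCAM1, CYP26B1, EMP3 and ENSBTAG00000012994, and 4 were called in none of these fits, GCNT4, GNA14, RPRM and STAT5A. Another 6, NFKBIE, TRAF1, ADA, FAT1, SLC5A5 and TSPAN5, were not called without cow 2, 3 or 4, and the remaining 13 lost their call in 1 or 2 of the 4 fits; the calls given below are those with all 4 cows. Since no gene passed the test of edgeR, the genes below are described by their values, as lower or higher, and none is reported as changed.

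Names could be given only to genes on the list of changed genes that the study drew from all 7 cows, these 4 included, so the directions of named genes are not independent evidence. Of its 102 genes, 100 had enough counts in the 8 libraries; 74 were lower in 4 of 4 cows and 19 higher in 4 of 4, with a median log2 fold change of -0.57 beside -0.01 over all tested genes. Of the 42 genes called by DESeq2, 26 (61.9%) were on that list, which is 26% of the 100. Named genes are grouped below by what they are known to do, and values are in CPM, the count of a gene per library brought to 1 size by TMM normalization, in the order of cows 2, 3, 4 and 5. CYSLTR2, PKDCC, NPPC, TSPAN5, RPRM, KDM6B, GCNT4, SLC1A5, SLC25A25 and NT5DC1 fall outside the rule by which genes were named and were chosen after their values were seen.

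**Figure D2:**
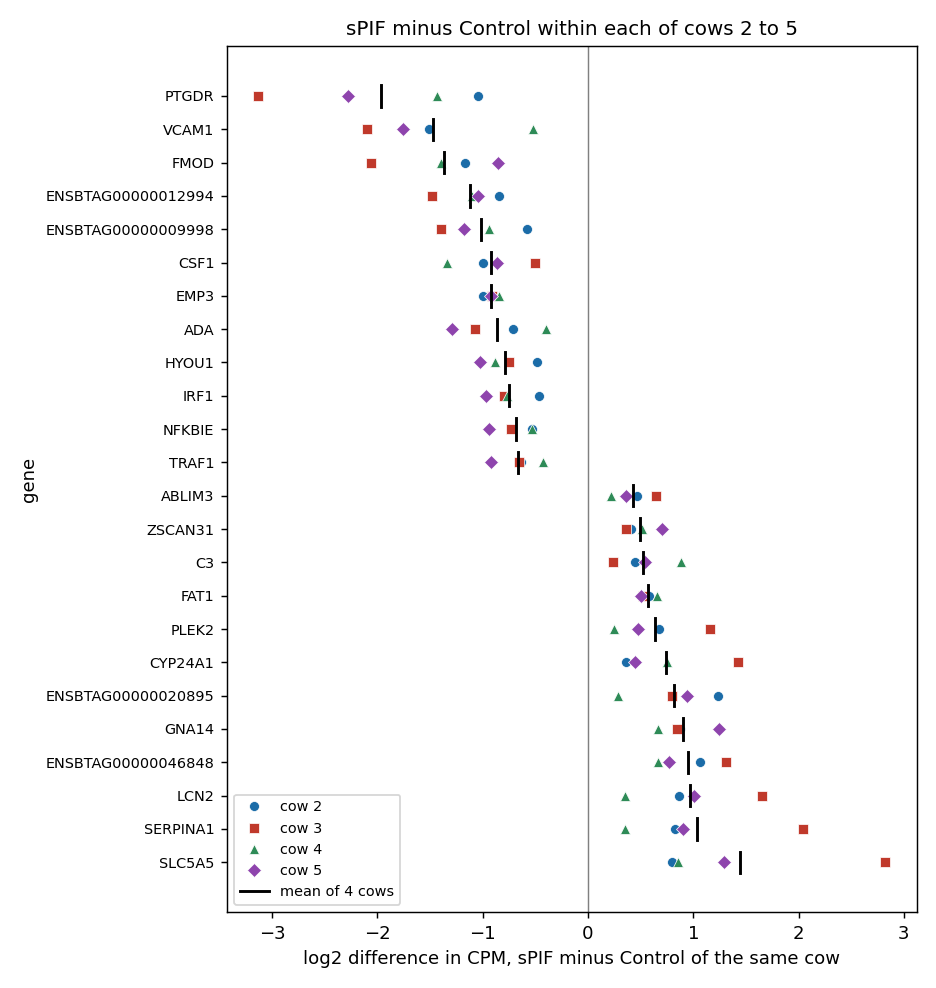
Log2 difference in CPM between the sPIF and the Control explant of each cow (symbols) and the mean of the 4 cows (black bar), for the 10 named genes and 2 unnamed genes in each direction with the smallest unadjusted p among those with the same sign in 4 of 4 cows. All symbols of a gene lie on 1 side of 0 because the genes were chosen that way; for PTGDR they run from -3.13 to -1.04 and for FAT1 from 0.51 to 0.66.

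The study's list holds 9 genes of NF-kappa B and TNF receptor signalling, and all 9 were lower with sPIF in 4 of 4 cows, as were 74 of the 100 genes of that list and 8.02% of all tested genes. Of the 9, 8 were lower at an unadjusted p under 0.05 in edgeR, beside 74 of 100 on the list and 3.05% of all genes, and DESeq2 called 2, beside 26 of 100 and 0.311%. The counts in the groups that follow are drawn from the same list, and those of lower genes stand beside the same shares. Counts of genes higher in 4 of 4 cows stand beside 19 of 100 on the list and 5.52% of all genes. For those higher at an unadjusted p under 0.05 the shares are 18 of 100 and 1.25%. For the 9 genes the log2 fold changes ran from -0.71 to -0.30 with a median of -0.55. The median of the 9 was -0.50, -0.52, -0.43 and -0.72 in cows 2, 3, 4 and 5. Of 40 genes listed for the pathway, 8 could be matched by name.
NFKBIE encodes inhibitor of kappa B epsilon, which holds NF-kappa B in the cytoplasm. Its level was 58.7, 83.4, 102 and 126 CPM in the Control explants and 40.6, 50.3, 71.1 and 65.4 with sPIF. Each cow had less of it with sPIF, cow 5 by the most, yet the groups overlap because the Control explant of cow 2 lay below the sPIF explants of cows 4 and 5. The log2 fold change was -0.68 ± 0.12 (SE, n = 4 cows), and DESeq2 called the gene with all 4 cows but not without cow 2, 3 or 4.
NFKB1, the precursor of the p50 subunit, stood at 105, 200.01, 171 and 269 CPM without and 81.0, 138, 120.4 and 129 with sPIF, a log2 fold change of -0.62 ± 0.14 (SE). Cow 5 again showed the widest gap, -1.06 on the log2 scale, against -0.38 in cow 2, and the groups overlap through the low Control explant of cow 2. NFKB2, the precursor of p52, had the smallest log2 fold change of the 9, -0.30 ± 0.12 (SE), and -0.20 without cow 5. TNFAIP6, a secreted protein induced by TNF, had the largest, -0.71 ± 0.26, and -0.45 without cow 2.
TRAF1, an adaptor of TNF receptors, was measured at 30.8, 83.8, 67.2 and 108 CPM in Control and 19.8, 53.0, 50.0 and 57.2 in sPIF explants. Its Control level in cow 2 was below the sPIF levels of the other cows, and the difference within a cow lay between -0.92 and -0.43. TRAF1 had a log2 fold change of -0.66 ± 0.12 (SE, n = 4), with a call by DESeq2 that was likewise lost without cow 2, 3 or 4, and its partner TRAF2 one of -0.39 ± 0.12, without a call.
TNFAIP3, the deubiquitinase that shuts the pathway off, had Control values of 56.3, 72.4, 80.3 and 93.6 CPM and sPIF values of 39.7, 46.1, 71.8 and 51.3. The gap was narrow in cow 4, -0.16, and wide in cow 5, -0.87. CD40, a receptor of antigen-presenting cells, and MAPK11, a p38 kinase, had log2 fold changes of -0.37 ± 0.13 and -0.46 ± 0.23 (SE), the latter at counts as low as 40.

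The 3 genes of interferon and JAK-STAT signalling, of 41 listed, were also lower in 4 of 4 cows, with a median of -0.54. IRF1, a transcription factor induced by interferon and by NF-kappa B, was at 154, 303, 404 and 457 CPM in Control explants and at 112, 174, 238 and 235 with sPIF. Cow 2 had the lowest value in either group and cow 5 the highest Control value, and the groups overlap through cow 2. IRF1 had a log2 fold change of -0.75 ± 0.13 (SE, n = 4) and was called by DESeq2.
STAT5A, which carries cytokine and prolactin signals to the nucleus, had 38.0, 51.5, 53.2 and 69.7 CPM without sPIF and 26.8, 31.9, 40.9 and 46.1 with it. Its differences were even across the cows, from -0.69 in cow 3 to -0.38 in cow 4, for a log2 fold change of -0.54 ± 0.11 (SE). IFNAR2, a chain of the type I interferon receptor, had a log2 fold change of -0.42 ± 0.13 (SE) that was smallest in cow 5, -0.15.

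**Figure D3:**
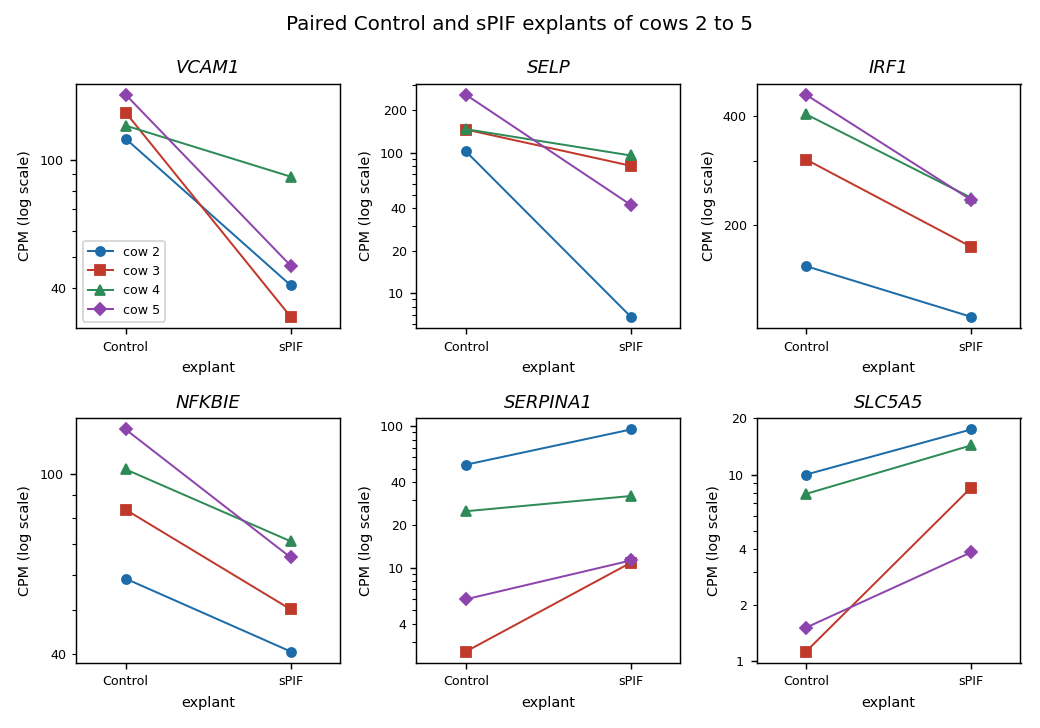
CPM on a log axis in the Control and the sPIF explant of cows 2 to 5, with a line joining the explants of a cow, for VCAM1, SELP, IRF1, NFKBIE, SERPINA1 and SLC5A5. Lines of the first 4 genes run down and those of the last 2 run up; SELP in cow 2 runs from 102 to 6.77 CPM.

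Adhesion molecules and leukocyte signals had a median log2 fold change of -1.16. All 8 genes were lower in 4 of 4 cows, 7 at an unadjusted p under 0.05 and 4 called by DESeq2, and the median of the 8 was -0.87, -0.96, -0.64 and -1.81 in cows 2, 3, 4 and 5, lowest in cow 5. Of 32 genes listed for leukocyte adhesion and chemokines, 5 could be matched by name, with a median of -0.93.
VCAM1, which lets leukocytes adhere to activated endothelium, was at 116, 139.9, 127 and 159 CPM in the Control explants and at 40.7, 32.5, 88.5 and 46.9 in the sPIF explants. The groups do not overlap: the sPIF explant of cow 4, the highest, stayed under the lowest Control explant, that of cow 2. Its log2 fold change was -1.48 ± 0.26 (SE, n = 4), with -0.53 in cow 4 and -2.10 in cow 3 as the extremes, and DESeq2 called it.
SELP encodes P-selectin, on which leukocytes roll along the vessel wall. It had 102, 146, 147 and 258 CPM without sPIF and 6.77, 80.5, 95.2 and 42.3 with it. The values do not overlap, but the size of the gap was uneven, with -3.89 on the log2 scale in cow 2 and -0.62 in cow 4. The log2 fold change of -1.94 ± 0.57 (SE) carried the widest error of the group and was not called by DESeq2.
PTGDR is a receptor of prostaglandin D2, found on leukocytes among other cells. Levels were 8.41, 19.7, 15.3 and 8.76 CPM in Control and 4.04, 2.16, 5.61 and 1.74 in sPIF explants. No sPIF explant reached the lowest Control explant, although the counts were low, with 41 in the smallest library value. On the log2 scale the fold change was -1.98 ± 0.37 (SE), the lowest of the named genes, from -1.04 in cow 2 to -3.13 in cow 3, and DESeq2 called it.
CSF1, the growth factor of macrophages, had Control values of 12.3, 18.7, 22.2 and 32.1 CPM and sPIF values of 6.12, 13.2, 8.72 and 17.6, and CD83, a surface protein of mature dendritic cells, had 16.8, 68.1, 82.1 and 117 and 10.0, 32.6, 49.8 and 25.2. In both genes the Control explant of cow 2 was the lowest Control value and lay inside the range of the sPIF explants. Their log2 fold changes were -0.93 ± 0.18 and -1.19 ± 0.27 (SE, n = 4), both called by DESeq2, and for CD83 cow 5 had -2.21 against -0.72 to -1.06 elsewhere.
CX3CL1, a chemokine anchored in the membrane, had its widest gap in cow 5. Its within-cow differences were -0.30, -0.39, -0.16 and -1.86, so that cow 5 alone had a gap beyond -0.39. CYSLTR2, a leukotriene receptor, had a log2 fold change of -1.13 ± 0.32 (SE) with its widest gap in cow 3, -2.33, and of -0.75 without that cow.

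Secreted acute-phase and complement genes stood on the other side. All 3 that could be matched, of 28 listed, were higher with sPIF in 4 of 4 cows and had an unadjusted p under 0.05, beside 19 and 18 of the 100 on the list and 5.52% and 1.25% of all genes, with a median of 0.97 and no call by DESeq2. SERPINA1, the inhibitor of neutrophil elastase, was at 53.3, 2.55, 25.0 and 5.97 CPM without sPIF and at 94.5, 10.8, 32.01 and 11.2 with it. Cows 2 and 4 had high levels in both explants and cows 3 and 5 low levels in both, so the groups overlap while every pair is higher with sPIF. Its fold change, on the log2 scale, was 1.00 ± 0.27 (SE, n = 4), 2.05 in cow 3 and 0.36 in cow 4.
LCN2, or lipocalin 2, which binds bacterial siderophores, had 3.90, 0.657, 7.27 and 0.558 CPM in Control and 7.18, 2.27, 9.28 and 1.22 in sPIF explants. Its lowest count was 10, the minimum of the filter, which limits the precision, and the log2 fold change was 0.97 ± 0.29 (SE). C3, the central complement component, had 32.5, 43.2, 60.0 and 25.4 and 44.2, 51.1, 110.4 and 37.1 CPM and a log2 fold change of 0.53 ± 0.14 (SE). Cow 4 held the highest C3 value of either group and the widest gap, 0.88.

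Genes of cholesterol synthesis and of vitamin D and retinoid handling on the list numbered 7, of which 6 had a log2 fold change above 0 and 1, CYP26B1, below. Of these, 4 were higher in 4 of 4 cows, 3 at an unadjusted p under 0.05, beside the shares for higher genes given for the group before, and the median log2 fold change was 0.37. On the cholesterol pathway, DHCR7, which makes cholesterol from 7-dehydrocholesterol, had 56.5, 34.7, 43.9 and 43.2 CPM in Control and 65.5, 49.6, 47.2 and 61.7 in sPIF explants. Every cow was higher with sPIF, by 0.10 in cow 4 and 0.52 in cow 3, and the groups overlap. Its log2 fold change was 0.34 ± 0.12 (SE), that of SQLE, squalene epoxidase, was 0.27 ± 0.11 with explants at nearly the same level in cow 4, and that of C14orf1, a sterol pathway scaffold, was 0.37 ± 0.19 with -0.01 in cow 5 and 0.21 without cow 3. These 3 are the genes matched of 27 listed for cholesterol synthesis.
CYP24A1, which breaks down active vitamin D, had 11.2, 4.29, 9.19 and 3.74 CPM without sPIF and 14.4, 11.7, 15.5 and 5.14 with it. Cow 3 had the widest gap, 1.42, and all 4 pairs were higher with sPIF, for a log2 fold change of 0.75 ± 0.23 (SE, n = 4). CYP26B1, which clears retinoic acid, was lower, with 18.6, 36.6, 19.5 and 57.4 CPM in Control and 8.19, 8.55, 14.2 and 9.28 in sPIF explants. Its groups do not overlap, since the sPIF explant of cow 4 was below the Control explant of cow 2. Over the 4 cows the log2 fold change was -1.60 ± 0.37 (SE), from -0.46 in cow 4 to -2.62 in cow 5, and DESeq2 called it. These genes, AOX1 and SLC34A2 are the 4 matched of 20 listed for vitamin D and retinoid handling; AOX1, an aldehyde oxidase, had a log2 fold change of 0.44 ± 0.15 and SLC34A2, a phosphate carrier, of 0.81 ± 0.40 (SE), with cow 5 lower, -0.27, cow 3 higher by 2.40 and a log2 fold change of 0.34 without cow 3.

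A further 7 genes on the list are carriers and enzymes of other kinds. Lower in 4 of 4 cows were ADA, the glycosyltransferase GCNT4, the amino acid carrier SLC1A5 and the mitochondrial carrier SLC25A25, with log2 fold changes of -0.87 ± 0.18, -0.97 ± 0.22, -0.41 ± 0.13 and -0.32 ± 0.10 (SE), and SLC5A5 and NT5DC1 were higher in 4 of 4, the latter by 0.62 ± 0.24. SLC5A5, the sodium iodide symporter, had 10.0, 1.12, 7.87 and 1.51 CPM in Control and 17.5, 8.50, 14.3 and 3.82 in sPIF explants. Cows 3 and 5 started low and cows 2 and 4 high, and in cow 3 the sPIF explant came near to the level of the Control explants of cows 2 and 4. The log2 fold change of 1.42 ± 0.37 (SE, n = 4) was the highest of the named genes, rested on 2.82 in cow 3 against 0.80 to 1.29 in the others, and was called by DESeq2, though not without cow 2, 3 or 4.
ADA, adenosine deaminase, which removes the immune-dampening nucleoside adenosine, was at 34.4, 32.9, 43.5 and 50.4 CPM without and 20.9, 15.6, 33.1 and 20.6 with sPIF. Cow 4 had the smallest gap, and its sPIF explant lay between the Control explants of cows 3 and 2. DESeq2 called ADA and GCNT4, but ADA not without cow 2, 3 or 4 and GCNT4 not with any cow left out. LPL, lipoprotein lipase and the sole match among the progesterone and oestrogen response genes, had differences of 0.17, -1.34, -1.50 and -1.39: cow 2 was slightly higher while cows 3, 4 and 5 were lower.

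Of 43 genes listed for heat shock and endoplasmic reticulum chaperones, 5 names with 6 identifiers could be matched, and their median was -0.79. Among these, PPP1R15A and ERO1B have the other roles given below. Of the 6, 5 were lower in 4 of 4 cows and all 6 were lower at an unadjusted p under 0.05, beside 74 of 100 on the list for either count. DESeq2 called 1, HYOU1. HYOU1, which helps proteins fold in the endoplasmic reticulum under stress, had 82.3, 158, 159 and 217 CPM in Control and 58.8, 93.8, 86.0 and 107 in sPIF explants. The Control explant of cow 2 lay among the sPIF explants, and the gap ran from -0.48 in cow 2 to -1.02 in cow 5. HYOU1 had a log2 fold change of -0.79 ± 0.13 (SE, n = 4).
The heat shock cochaperone DNAJB1 is on the list under 2 identifiers, which may share reads and are uncertain for that reason. The abundant one had 239, 210.1, 666 and 573 CPM without sPIF and 157, 205, 163 and 175 with it. Its sPIF explants were all below the Control explants, but cow 3 differed by -0.03 and cow 4 by -2.03, so the gap was carried by cows 2, 4 and 5. Its log2 fold change was -1.10 ± 0.35 (SE). The other identifier, with counts down to 24, differed by -0.30, -0.43, -1.97 and -2.13 in cows 2, 3, 4 and 5. The log2 fold change of that identifier was -1.28 ± 0.42 (SE).
SERPINH1, the collagen chaperone, was lower in cows 2, 3 and 4 and higher in cow 5, with differences of -0.74, -1.34, -1.31 and 0.22. PPP1R15A, which ends the stress-induced stop of translation, had a log2 fold change of -0.44 ± 0.14 and ERO1B, an oxidase for disulfide bonds, of -0.66 ± 0.19 (SE).

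Smooth muscle, matrix and stromal genes were lower in 11 of 12, each of the 11 in 4 of 4 cows and at an unadjusted p under 0.05, and DESeq2 called 4. The median was -0.78, and by cow it was -0.46, -1.21, -0.71 and -0.44, lowest in cow 3. FMOD, fibromodulin, which organises collagen fibrils, was at 23.8, 13.1, 21.2 and 9.04 CPM in Control and 10.5, 3.06, 8.00 and 4.97 in sPIF explants. Cow 5 was low in both explants, so that its Control value lay among the sPIF values of the others. The log2 fold change was -1.37 ± 0.23 (SE, n = 4), and DESeq2 called it.
EMILIN2, an elastic fibre glycoprotein, had 43.8, 101, 116 and 126 CPM without and 14.2, 40.5, 50.3 and 110.2 with sPIF. Cows 2, 3 and 4 had gaps of -1.61, -1.31 and -1.20, while cow 5 had -0.20 and kept the highest sPIF value. IGF2, insulin-like growth factor 2, had 223, 510.2, 276 and 323 CPM in Control and 172, 163, 145 and 206 in sPIF explants. Its groups do not overlap, and cow 3, with the highest Control value, had the widest gap, -1.65. The log2 fold changes of EMILIN2 and IGF2 were -1.08 ± 0.24 and -0.90 ± 0.22 (SE), both called by DESeq2. FNDC1, the other match among 40 genes listed for extracellular matrix, had a log2 fold change of -0.78 ± 0.25 (SE) at counts down to 15.
PKDCC, a secreted tyrosine kinase that acts on matrix proteins, was the exception, with 150.0, 45.6, 184 and 117 CPM without sPIF and 202, 93.6, 231 and 131 with it. All 4 pairs were higher, cow 3 by the most, for a log2 fold change of 0.49 ± 0.16 (SE), or 0.32 without cow 3.

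Markers of cell types could be matched by name for few genes. Of 15 smooth muscle markers, CNN1, TPM2 and SMTN were matched and were lower in 4 of 4 cows; their summed level was 156, 145, 183 and 226 CPM in Control and 118, 72.3, 112 and 167 in sPIF explants, lower in each cow. CNN1, calponin, had a log2 fold change of -0.87 ± 0.20, SMTN, smoothelin, of -0.55 ± 0.16 and TPM2, a tropomyosin, of -0.42 ± 0.13 (SE, n = 4), with CNN1 called by DESeq2. Of 16 endothelial markers CALCRL alone was matched, at 119, 141, 119 and 65.0 CPM without and 96.2, 55.8, 93.0 and 35.7 with sPIF. Of 14 stromal fibroblast markers TWIST1 alone was matched, at 4.46, 9.12, 7.09 and 11.2 and 2.14, 4.59, 4.22 and 8.68 CPM, and of 25 leukocyte markers only CD83, described above. Matched markers of all 4 types were lower with sPIF in each of the 4 cows, beside the vascular, matrix and leukocyte genes that were lower, and because they come from the study's list they say nothing of the other markers. The 20 epithelial and 8 red blood cell markers had no match, so the share of these cell types was not tested.

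Among genes of G protein and vascular signalling, 4 were lower and 1 higher, each in 4 of 4 cows. CALCRL, the receptor of adrenomedullin and related peptides, had a log2 fold change of -0.72 ± 0.19 (SE), with cow 3 at -1.34 and cow 2 at -0.31. GNA14, an alpha subunit of the Gq class, was the higher gene, at 4.61, 2.05, 4.51 and 5.92 CPM in Control and 8.55, 3.75, 7.21 and 14.1 in sPIF explants. Its pairs were 0.88, 0.84, 0.67 and 1.24 apart on the log2 scale, a narrow range. The groups overlap all the same, because the sPIF explant of cow 3 lay below the Control explants of cows 2, 4 and 5. GNA14 had a log2 fold change of 0.93 ± 0.19 (SE, n = 4) and was called by DESeq2 with all 4 cows only. RGS2 and RGS16, which switch G protein alpha subunits off, had log2 fold changes of -0.57 ± 0.16 and -0.53 ± 0.14 (SE). Both are among the 4 matched of 36 immediate early genes, all 4 lower in 4 of 4 cows. NPPC, the precursor of C-type natriuretic peptide, had -0.83 ± 0.34 (SE) at counts down to 18.

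Genes of actin, junctions, membrane and traffic split evenly, 5 lower and 5 higher, each in 4 of 4 cows. EMP3, a membrane glycoprotein, had the smallest p of all tested genes. It was measured at 33.7, 43.6, 58.2 and 91.9 CPM in Control and 16.8, 23.2, 32.3 and 48.7 in sPIF explants. Levels in both groups went from cow 2 as the lowest to cow 5 as the highest, which makes the groups overlap. Within a cow the differences were -0.999, -0.91, -0.85 and -0.92 and nearly equal. The choice by the smallest paired p, which took EMP3, FAT1 and GNA14, favours genes with even differences. EMP3 had a log2 fold change of -0.92 ± 0.11 (SE, n = 4), an adjusted p of 0.911 in edgeR and a call by DESeq2.
FAT1, an atypical cadherin at cell contacts, was as even in the other direction, with 71.6, 59.6, 70.1 and 71.6 CPM without sPIF and 107, 86.0, 111 and 102 with it. Its groups do not overlap, the lowest sPIF explant, of cow 3, standing above the highest Control explant. FAT1 had a log2 fold change of 0.57 ± 0.10 (SE) and was called by DESeq2, though not without cow 2, 3 or 4.
TSPAN5, a tetraspanin, had 29.8, 50.2, 49.2 and 42.1 CPM in Control and 19.2, 18.8, 27.5 and 31.2 in sPIF explants, lower in each cow and by the most in cow 3, -1.41. PLEK2, which binds membrane phosphoinositides, and ABLIM3, which binds actin, were higher, with log2 fold changes of 0.64 ± 0.20 and 0.42 ± 0.12 (SE).

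Regulators of transcription, the clock and growth were lower in 10 of 11, each in 4 of 4 cows, with a median of -0.55. NR1D1, a repressor of the circadian clock, had 16.05, 31.3, 45.3 and 82.4 CPM in Control and 12.3, 14.9, 27.0 and 28.8 in sPIF explants. Control levels were lowest in cow 2 and highest in cow 5, the sPIF levels were closer together, and the difference was -0.38 in cow 2 and -1.51 in cow 5. NR1D1 had a log2 fold change of -0.94 ± 0.20 (SE, n = 4) and was called by DESeq2. NOCT, a phosphatase with daily rhythms, had 17.0, 35.5, 32.4 and 26.7 CPM without and 10.6, 25.1, 21.9 and 19.3 with sPIF, and its differences were even, -0.67, -0.50, -0.56 and -0.47. These are the 2 matched of 20 clock genes.
RPRM, an inhibitor of the cell cycle, had 1.44, 12.3, 10.5 and 29.6 CPM in Control and 0.950, 3.70, 5.49 and 18.2 in sPIF explants. Cow 2 was lowest and cow 5 highest in both groups, and the log2 fold change was -1.02 ± 0.23 (SE), called by DESeq2 with all 4 cows only and at counts down to 16. GADD45G, induced by growth arrest and stress, had its differences at -0.06, -1.09, -0.86 and -0.66, near 0 in cow 2. KDM6B, a demethylase of histones, was at -0.01 in cow 4 and at -0.91 in cow 3. The zinc finger gene ZSCAN31 was the higher one, at 13.7, 14.1, 7.69 and 7.09 and 18.2, 18.2, 11.0 and 11.6 CPM, a log2 fold change of 0.50 ± 0.15 (SE).

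Outside the named genes, 2 identifiers in each direction had the smallest p among genes of the same sign in 4 of 4 cows. ENSBTAG00000012994 stood at 32.4, 40.9, 44.8 and 23.0 CPM in Control and 18.1, 14.6, 20.8 and 11.1 in sPIF explants. Its groups do not overlap, and the log2 fold change was -1.12 ± 0.15 (SE, n = 4). ENSBTAG00000009998 was lower in 4 of 4 cows as well, with a log2 fold change of -1.04 ± 0.18 (SE). ENSBTAG00000046848 had 29.2, 1.00, 13.9 and 4.07 CPM without sPIF and 61.2, 2.64, 22.2 and 7.02 with it, and ENSBTAG00000020895 had 135, 5.49, 83.9 and 16.4 and 317, 9.61, 102 and 31.6. In both, cows 2 and 4 were far above cows 3 and 5 whatever the treatment, so the groups overlap while each pair is higher with sPIF. Their log2 fold changes were 0.95 ± 0.17 and 0.82 ± 0.17 (SE), and DESeq2 called all 4 identifiers.

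The effect was set beside that in cows 1, 6 and 7, of which cow 1 was in lane 1 and cows 6 and 7 in lane 2, and which share no library with cows 2 to 5. A test of the difference itself, the interaction of sPIF with progesterone group in edgeR, was run over all 14 libraries and 13233 genes. It called 0 (0%) at the threshold of 0.1, with 187 (1.41%) at an unadjusted p under 0.05. That share does not exceed the 0.05 that would be reached with no effect. DESeq2 called 0, with 198 at an unadjusted p under 0.05 and a smallest adjusted p of 0.104. The study had tested this interaction with DESeq2 and likewise reported none at its threshold of 0.1. With 4 cows against 3, none of these results shows that the groups responded alike. Across genes, the mean differences of the groups had Pearson's r of 0.33 and a Spearman correlation of 0.30, as a description. Of the genes with an unadjusted p under 0.05 in cows 2 to 5 that are not on the study's list, 474 could be measured in all cows, and 358 of them (75.5%) had the same direction in cows 1, 6 and 7, against 60.2% of all genes. Of those lower in cows 2 to 5 this held for 254 of 327 (77.7%) and of those higher for 104 of 147 (70.7%). Sizes were smaller there, with a median of -0.17 against -0.54 for the former and 0.11 against 0.57 for the latter; these sizes are not on an equal footing, since the genes were chosen by their p in cows 2 to 5. For the 16 genes called by DESeq2 and not on the list the share was lower, 10 of 16 (62.5%), near that of all genes, with 9 of 13 lower and 1 of 3 higher genes in the same direction. Both higher identifiers described above were among the 2 of 3 that differed: in cows 1, 6 and 7, ENSBTAG00000046848 was at -0.63, 0.81 and -0.69 and ENSBTAG00000020895 at -0.31, 0.74 and -0.99, higher in cow 6 alone.
Among genes with a symbol, 5 had the smallest p for the interaction. EMP3 had within-cow differences of 0.32, -0.42 and -0.63 in cows 1, 6 and 7, so that cow 1 was higher with sPIF, and its interaction was -0.65 ± 0.22 (log2, SE). PTGDR had 0.98, -1.05 and -0.51 in these cows, again with cow 1 higher, and an interaction of -1.73 ± 0.62. TRAF1 was at 0.01, -0.41 and -0.08 with an interaction of -0.49 ± 0.18, and NOCT at -0.08, -0.26 and -0.33 with -0.31 ± 0.17. FAT1 was higher in all 7 cows, by 0.09, 0.26 and 0.30 in cows 1, 6 and 7, and its interaction was 0.36 ± 0.13. In each of the 5 the effect was the larger in cows 2 to 5, yet none had an adjusted p under 0.1 in edgeR, where the smallest over all genes was 1.00 after rounding. The 5 were chosen by their p for the interaction, and EMP3, PTGDR, TRAF1 and FAT1 also by their p in cows 2 to 5. That choice favours a larger effect in cows 2 to 5. SERPINA1 and LCN2 lay the other way, with differences for SERPINA1 of 1.37, 2.42 and 0.51 and for LCN2 of 1.502, 1.52 and 1.16 in cows 1, 6 and 7, and interactions of -0.41 ± 0.50 and -0.44 ± 0.36 that did not pass the test either. The 4 identifiers described above had interactions of -1.03 ± 0.51, -0.92 ± 0.29, 1.14 ± 0.39 and 1.03 ± 0.39 in the order given there. Of these, ENSBTAG00000009998 and ENSBTAG00000046848 had a smaller unadjusted p than any of the 5 genes with a symbol. None of the 4 had an adjusted p under 0.1, and they too were chosen by their p in cows 2 to 5.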

How the data were processed

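The authors extracted total RNA from the explants, prepared libraries from it with a TruSeq kit and sequenced them from both ends of each fragment. Per the submitters' processing notes and the study's methods, reads were trimmed with Trimmomatic 0.36.0 and mapped with Bowtie2 2.2.6 to the UMD3.1 assembly, and the deposited values are raw counts per gene that the authors made with featureCounts 1.4.6, adding both sequencing runs for cow 5. The last row holds the total of each column over 24616 genes and was dropped. Use of strand in counting is not given in the sources used here, so overlapping genes cannot be told apart.

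Genes with at least 10 counts in all 8 libraries were tested with edgeR 4.0.16 in R 4.3.3 (TMM, quasi-likelihood, cow as a block, threshold 0.1, two-sided); the interaction was tested likewise over 14 libraries. The SE is the fold change over the square root of F, whose spread is moderated over genes, so it is not the SE of the 4 plain differences. A prior count of 2 was used for log2 differences. Progesterone group and lane come from the study's text and pairing from the labels; deviations from the group means correlated at 0.32 to 0.66 between explants of a cow and at -0.39 to 0.09 between cows. Total counts ranged from 16377453 to 28625724.

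Alternatives were DESeq2 1.42.0, limma-voom (limma 3.58.1), other normalizations and filters, no block, all 14 libraries, a term for lane, and each cow left out. DESeq2 with a cow left out, and directions in a left-out cow or in cows 1, 6 and 7, were added after seeing the data. Named were, in each direction, 10 genes with a symbol and 2 without by the smallest p among those of the same sign in 4 of 4 cows, list members on the study's list, and 5 genes by the interaction. Symbols came from that list, with an extra 0 removed from 27 identifiers; 0 of 24616 identifiers matched the RefSeq table of ARS-UCD2.0. Genes and lists were chosen with earlier results of these data known.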

Additional observations from a re-analysis of the deposited data

Results flagged for a closer look

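For 6 of the named genes 1 cow lay far from the others in its log2 difference between sPIF and Control, with the gap to the nearest cow taking most of the range of the 4 cows; 86 groups of 4 values were examined, and about 1 in 20 would be flagged by chance. GJC1, named outside the rule, was at -1.39 in cow 3 against -0.58 to -0.54 (gap over range 0.961). LPL was higher in cow 2, at 0.17, and lower in the others, from -1.50 to -1.34 (0.903). KLF11 in cow 3 was at -0.79 against -0.26 to -0.20 (0.898), and RGS16 in cow 3 at -0.96 against -0.44 to -0.35 (0.860). CX3CL1 in cow 5 was at -1.86 against -0.39 to -0.16 (0.867). SQLE in cow 4 was at 0.0047 against 0.33 to 0.38 (0.862). Library totals, the share of counts in the 10 most abundant genes and the SD across genes had no such cow. None of the 77 named genes measured in all 14 libraries had differences above 0 in all of cows 2 to 5 and below 0 in all of cows 1, 6 and 7, or the reverse. FNDC1, CRYGS and SNORD33 did not pass the filter over these libraries and were not examined in this way.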

How the results depend on the processing

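The count of 0 genes called by edgeR for sPIF in cows 2 to 5 was the same with DESeq2's size factors, upper quartile normalization, both looser filters, limma-voom, no block for the pairing (0 genes, with 184 at an unadjusted p under 0.05 against 580 with it), all 14 libraries in the fit (786) and each cow left out (0 to 0), and was 42 with DESeq2; the cause was not tested. For the interaction, 0 genes were called under every alternative, including the fit without a block for the pairing (0 genes, 29 at an unadjusted p under 0.05, against 187), the term for lane (0, and 251), DESeq2 (0, and 198) and each of the 7 cows left out (0 to 0; 608 without cow 5). The difference in library size was -765435 to 5004033 with a cow left out, negative without cow 4 (-14029) or cow 5 (-765435).

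All 80 genes named here, 62 by the rule and 18 outside it, the latter run after seeing the data, kept their direction under every alternative in which they were measured; DESeq2 called 27 of them, 24 by the rule and 3 outside it. With a cow left out, 13 of the 80 had a log2 fold change over 1.5 times larger or smaller, 9 of them without cow 3, and without the pairing 1 did, TNFAIP6 (-0.43). Where these values are not given elsewhere, KLF11, FSTL3 and TBX3 were at -0.22, -0.49 and -0.36 without cow 3 against -0.37, -0.79 and -0.60, and CX3CL1 at -0.26 without cow 5 against -0.67. Medians of gene groups stayed within 1 SD between cows with DESeq2's size factors, the filter of 10 counts in any library and each cow left out, except NF-kappa B and TNF receptor signalling without cow 5 (-0.42 against -0.55) and sterol, vitamin D and retinoid handling without cow 3 (0.29 against 0.37). Leaving out cow 5 raised the genes at an unadjusted p under 0.05 from 580 to 1546, and leaving out each other cow gave 355 to 405. The share of genes off the study's list with the same direction in cows 1, 6 and 7 was 69.7% to 76.8% with a cow of cows 2 to 5 left out, chosen after seeing the data. Depth limits LCN2, SNORD33, FNDC1, RPRM and NPPC, with lowest counts of 10, 10, 15, 16 and 18.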

Other observations

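Genes of the study's list that belong to none of the groups above were chosen here after their values were seen. By the sign of the log2 fold change, 7 of the 8 were lower with sPIF, beside 78 of 100 on the list and 7070 of 13488 tested genes. The median log2 fold change of the 8 was -0.67. CRYGS, a crystallin of the lens that other tissues also express, was the exception: its level was 7.02, 7.50, 12.6 and 11.1 CPM in the Control explants of cows 2, 3, 4 and 5 and 6.71, 44.9, 25.0 and 18.7 with sPIF. Cow 2 was at nearly the same level in both explants and cow 3 was 2.57 higher on the log2 scale, so the log2 fold change of 1.07 ± 0.41 (SE, n = 4) carries a wide error and was 0.59 without cow 3. SERPINB9, an inhibitor of granzyme B, had 5.38, 9.86, 6.97 and 9.60 CPM without and 4.10, 3.33, 5.97 and 5.11 with sPIF, lower in each cow with a log2 fold change of -0.77 ± 0.27 (SE), or -0.51 without cow 3. The small RNAs 7SK and SNORD33 and the histone gene HIST1H2AC have near-identical copies or lie within other genes, so their counts are uncertain; their log2 fold changes were -0.39 ± 0.15, -1.34 ± 0.57 and -0.75 ± 0.24 (SE), and SNORD33 was higher in cow 2 and lower in the other cows, 0.78, -2.06, -0.70 and -2.58, with a log2 fold change of -0.80 without cow 5 and counts down to 10.

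Among stromal and growth genes on the list not described above, also chosen after their values were seen, GJC1, a connexin, had 16.05, 30.3, 20.9 and 28.7 CPM in Control and 11.0, 11.5, 14.0 and 19.2 in sPIF explants, and FSTL3, which binds activins, had 47.8, 55.8, 81.3 and 89.6 and 39.7, 17.2, 50.8 and 62.1. Both were lower in 4 of 4 cows and by the most in cow 3, -1.39 and -1.70. TBX3, a transcription factor of the T-box family, differed by -0.07 in cow 4 and -1.32 in cow 3. In these 3 genes, as in the list as a whole, the median of which was -0.37, -0.72, -0.41 and -0.56 in cows 2, 3, 4 and 5, cow 3 lay lowest.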
